A study of Rattus norvegicus with 7 samples.

Results

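The miRNAs miR-26a, miR-26b, miR-148b-3p and miR-152 were followed in pancreatic islets of ageing rats. They were chosen by name, as the rat forms on the array that belong to the miR-26 and miR-148/152 families, with the opposite (star) arms left out. They are 4 of the 677 rat miRNAs measured. The assay was the Agilent single-colour miRNA array, on which RNA carries 1 dye and each miRNA is read by several spots. The 4 older animals were 12-month-old male Wistar rats (replicates 2, 4, 10 and 16) and the 3 younger ones were 3-month-old male Wistar rats (replicates 9, 11 and 13), with 1 array per rat. The labels name no treatment. Islets had been isolated with collagenase and total RNA was profiled, so every value is an average over all cells of the preparation. In such bulk samples, fewer cells of a type and less of a miRNA per cell cannot be told apart.

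A miRNA is loaded into an Argonaute protein and lowers the stability and translation of mRNAs that pair with its seed, the stretch from base 2 to base 8. In beta cells, miR-24, miR-26, miR-182 and miR-148 are known for keeping insulin transcription high, since blocking them lowers insulin mRNA, and the transcriptional repressors Bhlhe22 and Sox6 are among the targets linked to that effect. The miR-148/152 family is also known for targeting Dnmt1, the maintenance DNA methyltransferase.

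The mature sequences are shown because they place the 4 miRNAs in 2 seed families, whose members are close enough in sequence to matter for how an array tells them apart. They are RefSeq sequences, written 5′ to 3′ with the seed in capitals.
rno-miR-26a: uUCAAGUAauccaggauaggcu
rno-miR-26b: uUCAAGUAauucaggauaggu
rno-miR-148b-3p: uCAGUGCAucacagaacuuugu
rno-miR-152: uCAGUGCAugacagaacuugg
Counted from 1 at the 5′ end, miR-26a and miR-26b differed by C11U and C21U, with miR-26a as the first base, and 19 of the 21 positions that both have were the same. Between miR-148b-3p and miR-152 the substitutions were C10G and U20G, with miR-148b-3p as the first base, and again 19 of 21 positions were the same. The miR-26 seed was held by 2 of the 724 rat mature sequences in the RefSeq table (0.276%), miR-26a and miR-26b. The miR-148/152 seed was held by 3 of them (0.414%), the third being miR-148a, which is not among the miRNAs analysed here. How far each probe also binds the other family member was not tested.

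All 4 loci lie in protein-coding genes in the GRCr8 assembly. Mature miR-26a is at chr8:127633063-127633084 on the plus strand, within Ctdspl, and miR-26b is at chr9:83425723-83425743 on the plus strand, within Ctdsp1. Both hosts encode small phosphatases of the C-terminal domain of RNA polymerase II. Mature miR-148b-3p is at chr7:136299930-136299951 on the plus strand, within Copz1, and miR-152 is at chr10:82329435-82329455 on the plus strand, within Copz2. These hosts encode zeta subunits of the coatomer that coats vesicles of the Golgi. The hosts of miR-26a and miR-26b are paralogs, as are those of miR-148b-3p and miR-152.

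The older arrays were brighter as a whole, though not for every miRNA. The scanner software detected 278 to 296 miRNAs per array at 12 months and 246 to 272 at 3 months, and the 75th percentile of the signal was 67.0 to 73.8 against 37.4 to 55.4. Across the 272 miRNAs tested, those the software detected in all rats of 1 age or both, the median log2 difference between the ages was 0.79 before normalisation and 0.06 after quantile normalisation, which gives every array the same distribution of values. A direction for any of the 4 miRNAs is thus relative to the other miRNAs on the array. Of miRNAs known from other cell types, all 3 acinar ones were lower at 12 months after normalisation, at an unadjusted limma p below 0.05. Their summed signal before normalisation was 149 to 1451 against 887 to 1722. Of the mesenchymal ones 4 of 5 were higher (2629 to 3645 against 736 to 1711), as were 2 of 4 leukocyte ones (310 to 663 against 142 to 222) and 1 of 2 endothelial ones (2173 to 2794 against 1017 to 1754). The erythroid ones (144 to 289 against 86.7 to 224) and the islet endocrine ones miR-375 and miR-7a (32797 to 62626 against 25607 to 34434) held none that passed. All these summed signals are before normalisation, so they hold the brightness difference of the arrays. After normalisation the median log2 fold changes were -0.52 (erythroid), -0.14 (islet endocrine), -2.11 (acinar), 1.16 (mesenchymal), 0.62 (leukocyte) and 0.32 (endothelial). No defining marker of these types was used to adjust the values, and the part that cell composition has in the results below was not tested. All 4 miRNAs were detected on 7 of 7 arrays, and no spot was saturated.

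No age difference passed the test for any of the 4 miRNAs. After normalisation, 3 of the 4 had a higher mean at 12 months and miR-26a had a lower one, with log2 fold changes between -0.09 and 0.22 and a median of 0.13, beside 0.06 over all miRNAs tested. None of the 4 had an unadjusted limma p below 0.05, which held for 59 (21.7%) of the 272 miRNAs tested. None was below an adjusted p of 0.05, as 4 (1.47%) of all were. The normalised values of the ages overlapped for each of the 4, whereas for 47 (17.3%) of the miRNAs tested they did not.

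**Figure D1:**
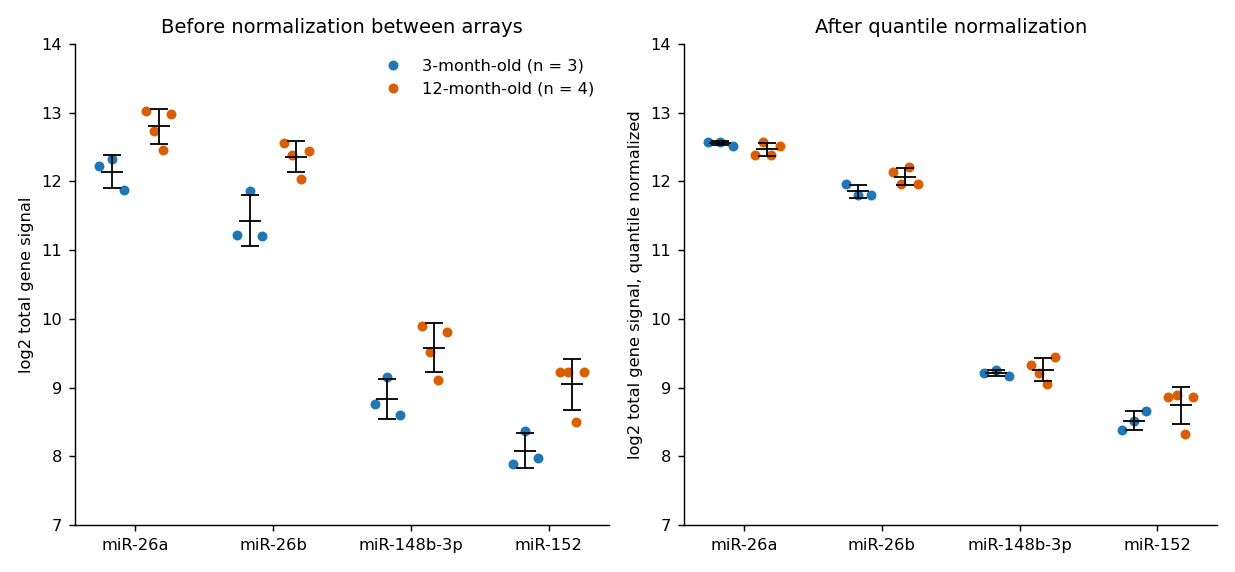
The log2 total gene signal of each rat (1 point per array) for the 4 miRNAs, before normalisation between arrays (left) and after quantile normalisation (right), with bars for the mean ± SD of each age. On the left miR-26a, miR-26b and miR-152 separate by age and miR-148b-3p overlaps, whereas on the right the ages overlap for all 4.

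Before normalisation, the total gene signal of miR-26a was 8366, 6823, 5648 and 8045 in 12-month-old replicates 2, 4, 10 and 16. It was 4794, 5134 and 3765 in 3-month-old replicates 9, 11 and 13. Every older rat lay above every younger one. The difference of the log2 signals was 0.66, or 1.58-fold (two-sided exact permutation test over the 35 splits of the rats, p = 0.0571). This was smaller than the shift of the array as a whole, at percentile 30.5 of the miRNAs tested. After normalisation the log2 values were 12.38, 12.57, 12.38 and 12.52 in the older rats and 12.57, 12.57 and 12.52 in the younger ones. The means were 12.46 ± 0.10 (SD, n = 4) and 12.56 ± 0.03 (SD, n = 3), with the younger rats at the upper end of a narrow common range. The log2 fold change was -0.09 (SE 0.13, 95% interval -0.39 to 0.21, limma adjusted p = 0.799). Repeated values arise because quantile normalisation assigns a value by place in an array's signal order, and miR-26a held place 12 to 14 on every array.

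For miR-26b the signal was 6030, 5341, 4202 and 5584 in the older rats and 2384, 3703 and 2370 in the younger ones, in the same order of replicates. The ages did not overlap, and the log2 difference of 0.93, or 1.90-fold, had the smallest p that 4 rats against 3 allow (exact permutation p = 0.0286). It lay at percentile 72.8 of the miRNAs tested. The normalised values were 12.13, 11.96, 12.21 and 11.96 against 11.96, 11.80 and 11.80. These overlapped by 1 shared value, since 12-month-old replicates 4 and 16 and 3-month-old replicate 9 all placed it at 17. The means were 12.07 ± 0.13 (SD, n = 4) and 11.86 ± 0.09 (SD, n = 3). The log2 fold change was 0.21 (SE 0.14, 95% interval -0.11 to 0.53, limma adjusted p = 0.465), so a rise of up to 1.45-fold lies inside the interval.

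The signal of miR-148b-3p was 955, 734, 550 and 894 in the older rats and 432, 569 and 386 in the younger ones. Here 12-month-old replicate 10 lay just below 3-month-old replicate 11, so the ages overlapped even before normalisation. The log2 difference was 0.75, or 1.68-fold (exact permutation p = 0.0857), at percentile 43.4. Normalised values were 9.32, 9.22, 9.04 and 9.44 against 9.22, 9.25 and 9.17. The younger rats lay within the range of the older ones, with means of 9.26 ± 0.17 (SD, n = 4) and 9.21 ± 0.04 (SD, n = 3). The log2 fold change was 0.04 (SE 0.15, 95% interval -0.29 to 0.38, limma adjusted p = 0.945). It became -0.02 when 12-month-old replicate 16 was left out and 0.12 when replicate 10 was.

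The signal of miR-152 was 601, 602, 360 and 600 in the older rats and 237, 331 and 252 in the younger ones. The other older rats were nearly equal, and 12-month-old replicate 10 stood far below them though still above the younger rats. The log2 difference was 0.97, or 1.96-fold (exact permutation p = 0.0571), at percentile 76.8. After normalisation the values were 8.87, 8.89, 8.33 and 8.87 against 8.38, 8.52 and 8.65, and 12-month-old replicate 10 then had the lowest value of all 7 rats. The means were 8.74 ± 0.27 (SD, n = 4) and 8.52 ± 0.13 (SD, n = 3). The log2 fold change was 0.22 (SE 0.18, 95% interval -0.20 to 0.64, limma adjusted p = 0.565). Leaving out 12-month-old replicate 10 raised it to 0.37 (limma adjusted p = 0.0830). Array weights, which count arrays that differ from the rest for less, gave 0.36 (95% interval 0.09 to 0.62, limma adjusted p = 0.0668).

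**Figure D2:**
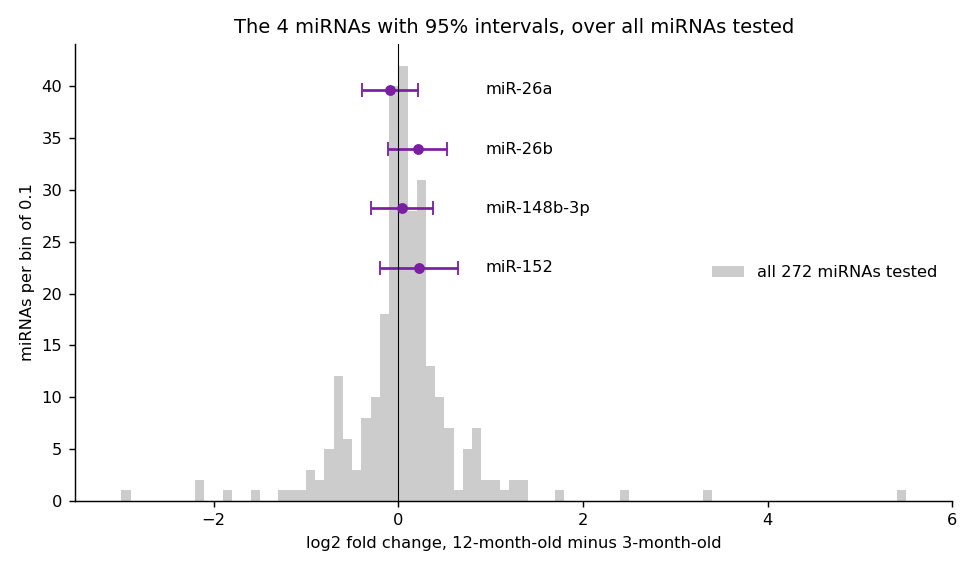
Log2 fold changes (12-month-old minus 3-month-old) of the 4 miRNAs with their 95% intervals, drawn over a histogram of the log2 fold changes of the 272 miRNAs tested in bins of 0.1. All 4 intervals include 0 and lie in the dense middle of the histogram, and the height at which each interval is drawn has no meaning.

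Before normalisation, replicate 10 had the lowest signal of the older rats and replicate 11 the highest of the younger rats for each of the 4 miRNAs. The same held for miR-24 and miR-7a, so this order was not particular to the 4. For miR-375 and miR-182 replicate 10 was again the lowest of the older rats, but replicate 9 was the highest of the younger ones. The spread of the 4 miRNAs around the age means after normalisation was small for 3 of them. The within-age SD on the log2 scale was 0.08 for miR-26a, 0.11 for miR-26b and 0.13 for miR-148b-3p, against a median of 0.27 over the miRNAs tested, and 0.23 for miR-152. Among other bright miRNAs it was 0.06 for let-7f, 0.08 for let-7i and 0.10 for miR-22, but 0.24 for miR-24. A small spread was thus not particular to these 3. Before normalisation the SD of miR-26a was 0.26 at 12 months and 0.24 at 3 months. The intervals of the fold changes had half-widths of 0.30 to 0.42, against a median of 0.47 over all tested.

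The size and for some the sign of the age difference followed the scaling of the arrays. With no normalisation all 4 passed the test, with log2 fold changes of 0.66 to 0.97 and adjusted limma p values of 0.0440 for miR-26a, 0.0240 for miR-26b, 0.0372 for miR-148b-3p and 0.0233 for miR-152. In that setting 171 of all 272 miRNAs tested passed, these 4 among them. The signals of the ages did not overlap for 132 (48.5%) of the 272, beside 3 of the 4 here. Under each of the other scalings tried, no adjusted p of the 4 was below 0.05. The means of miR-26b and miR-152 stayed higher at 12 months under every scaling, whereas miR-26a turned to slightly higher when arrays were scaled to miR-375 (0.09), to the 75th percentile of all rat miRNAs (0.02) or in the deposited matrix (0.004). The sign of miR-148b-3p turned to lower when arrays were scaled to miR-7a (-0.12), to the summed signal (-0.06) or by cyclic loess (-0.04). For miR-26b, the 95% interval in the deposited matrix was 0.02 to 0.54, with an adjusted p of 0.188.

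**Figure D3:**
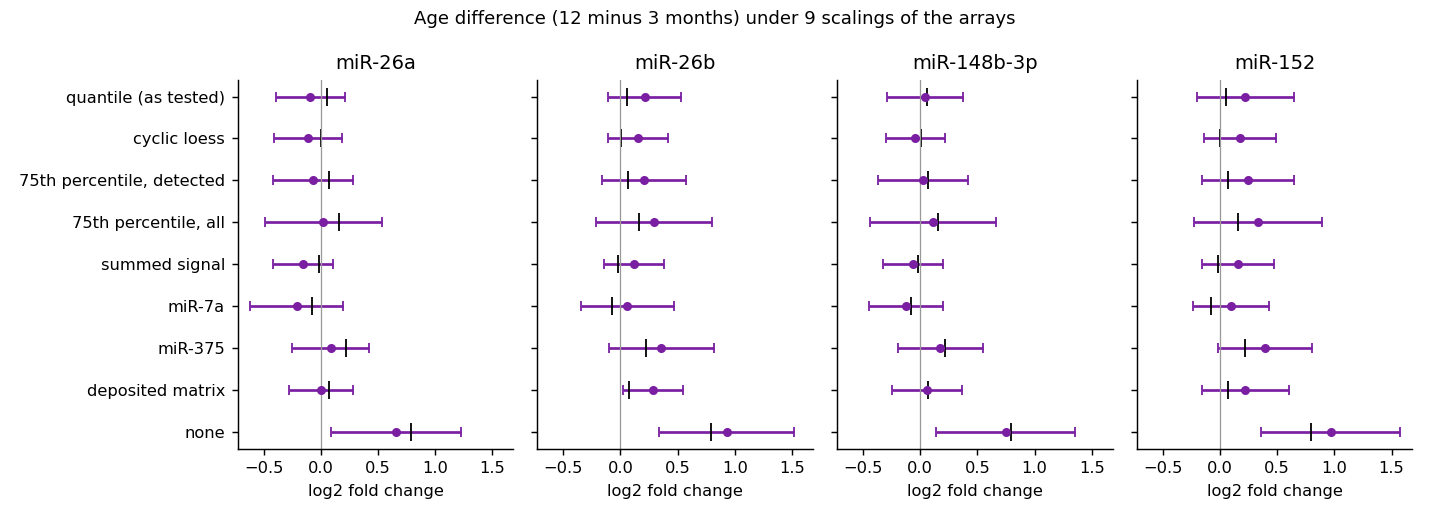
Log2 fold change of each miRNA (point) with its 95% interval under 9 ways of scaling the arrays, with a black tick for the median over all miRNAs tested in that setting. The intervals exclude 0 for all 4 miRNAs with no scaling, and for miR-26b alone in the deposited matrix, and the black ticks move with the points.

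Ratios between 2 miRNAs on the same array do not depend on a scaling factor shared by that array, so the 6 pairs were compared between the ages with p values adjusted over the 6. None of the differences passed, and the ages overlapped in each pair. The log2 ratio of miR-26a to miR-26b was 0.47, 0.35, 0.43 and 0.53 in the older rats and 1.01, 0.47 and 0.67 in the younger ones. The difference was -0.27 (exact permutation p = 0.0857, 0.229 adjusted), with 3-month-old replicate 9 far above the rest, and -0.13 without that rat. The value of 3-month-old replicate 11 lay inside the range of the older rats.

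The ratio of miR-148b-3p to miR-152 was 0.67, 0.29, 0.61 and 0.57 on the log2 scale in the older rats and 0.87, 0.78 and 0.62 in the younger ones, a difference of -0.22 (exact permutation p = 0.114, 0.229 adjusted). The lowest value was that of 12-month-old replicate 4, without which the difference was -0.14. Across the families, the differences were -0.31 for miR-26a to miR-152 (exact permutation p = 0.114, 0.229 adjusted) and -0.09 for miR-26a to miR-148b-3p (p = 0.371 by the exact test, 0.446 adjusted). Without 3-month-old replicate 9 they were -0.17 and -0.01. For miR-26b they were 0.18 relative to miR-148b-3p (exact permutation p = 0.229, 0.343 adjusted), or 0.12 without that rat, and -0.04 relative to miR-152 (exact permutation p = 0.686, also after adjustment).

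**Figure D4:**
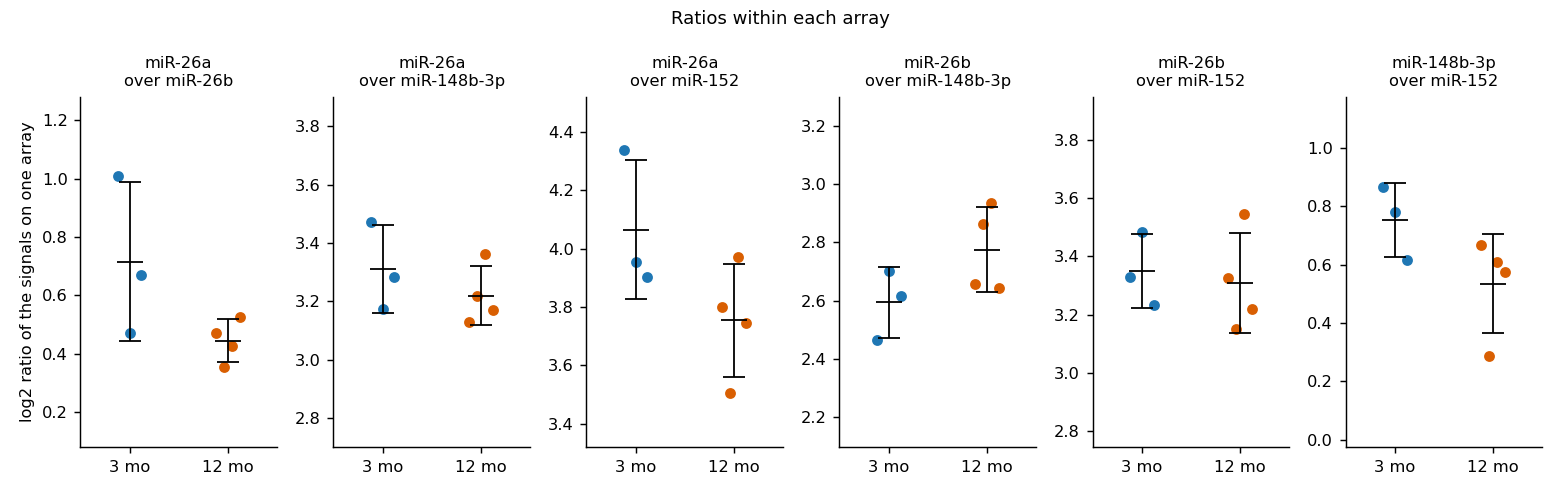
Log2 ratio of the total gene signals of 2 miRNAs on the same array, for the 6 pairs, with 1 point per rat (blue, 3-month-old; orange, 12-month-old) and bars for the mean ± SD. The vertical axes do not start at 0 but span the same range of log2 units, and the ages overlap in every pair, with 3-month-old replicate 9 the highest point in the 3 pairs that have miR-26a on top.

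The array rows held both ages, so the differences could also be read within each row. Row 1 of the slide held 12-month-old replicates 2 and 4 and 3-month-old replicate 9, and row 2 the other 4 rats. The normalised log2 difference of miR-26a was -0.10 in both rows, and that of miR-148b-3p was 0.05 and 0.03. For miR-26a the rows match exactly because its normalised values repeat, taking only the few levels of neighbouring places in the signal order. For miR-26b it was 0.09 in row 1 and 0.28 in row 2, and for miR-152 it was 0.50 and 0.015. The miR-26a to miR-26b ratio differed by -0.60 in row 1 and by -0.09 in row 2. Within a row these values were not tested. With the row as a block in the fit, the log2 fold changes were -0.10 for miR-26a, 0.20 for miR-26b, 0.04 for miR-148b-3p and 0.21 for miR-152, and the limma adjusted p values were 0.817, 0.541, 0.931 and 0.636.

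Each of the 4 miRNAs was read by 2 probes with 10 spots each, whose sequences were not used here. For miR-26b the brighter probe gave 1.28 to 1.31 times the signal of the dimmer one on every array, and for miR-148b-3p 1.58 to 1.73 times. For miR-26a this was 2.66 to 2.75 on 6 arrays and 1.98 on that of 3-month-old replicate 9, the rat whose miR-26a to miR-26b ratio was highest. With only the brighter probe of each, the age difference in that ratio was -0.23 (exact permutation p = 0.0571). For miR-152 the brighter probe carried 97.2% to 98.2% of the total signal, and the dimmer one lay at 4.49 to 16.6 signal units. In 3-month-old replicates 13 and 9 the dimmer probe read 4.49 and 5.67. Totals of whole miRNAs near these values were called either way. A total of 5.62 was not detected (miR-26b* in 12-month-old replicate 16), and 5.01 was (miR-148b-5p in 12-month-old replicate 2). The miR-152 level thus rests almost wholly on 1 probe, given its share of the signal. Before normalisation, both probes of the other miRNAs had higher means at 12 months, by 0.56 and 0.70 on the log2 scale for miR-26a, 0.92 and 0.93 for miR-26b, and 0.77 and 0.74 for miR-148b-3p (dimmer probe first). For miR-152 the brighter probe was higher by 0.96.

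**Figure D5:**
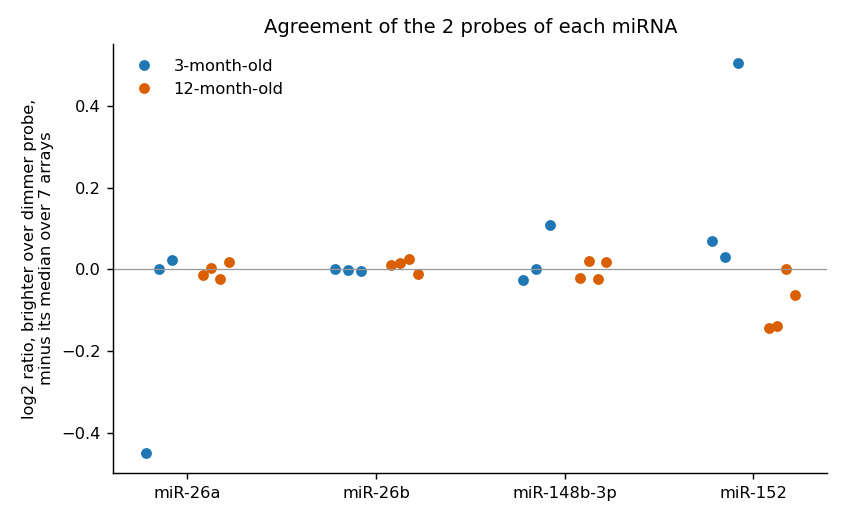
Log2 ratio of the brighter to the dimmer probe on each array, minus the median of that ratio over the 7 arrays, with 1 point per rat. Points near 0 mean that both probes gave the same relative level, and the points farthest off are 3-month-old replicate 9 for miR-26a and 3-month-old replicate 13 for miR-152, where the dimmer probe read 4.49 signal units.

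The other miRNAs of the insulin-transcription group did not pass the test either (0 of 2 on the array, in either direction). For miR-24 the log2 fold change was -0.06 (SE 0.19, limma adjusted p = 0.943), and for miR-182 it was -0.19 (SE 0.29, limma adjusted p = 0.817). The values of miR-182 came from signals of 34.2 to 93.4. The islet miRNAs had log2 fold changes of -0.20 for miR-375 (SE 0.16, limma adjusted p = 0.552) and -0.07 for miR-7a (SE 0.14, limma adjusted p = 0.897). Since miR-7a was the brightest miRNA on 6 arrays and in place 2 on that of 12-month-old replicate 10, its quantile-normalised value could not rise, and the -0.07 is that 1 change of place. Its log2 fold change was 0.12 by cyclic loess and 0.30 with arrays scaled to miR-375. The opposite arms of the 4 hairpins were near background. The arms miR-26a*, miR-26b* and miR-152* were detected on 0 of 7 arrays, and miR-148b-5p was detected on 2, both from 12-month-old rats, so none of them was tested.

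The miRNAs whose normalised profile over the 7 arrays was closest to each of the 4 were found by the root mean square distance of log2 values centred on their own mean. The nearest to miR-26a were miR-7a (0.08), miR-30e (0.08) and miR-22 (0.10), where the median over all tested was 0.30. The nearest to miR-26b were miR-29c (0.07), miR-29b (0.10) and miR-200a (0.11), with a median of 0.31. For miR-148b-3p they were miR-185 (0.06), miR-30b-3p (0.08) and miR-7a (0.09), with a median of 0.26, and for miR-152 they were miR-96 (0.08), let-7d (0.10) and miR-299 (0.10), with a median of 0.32. Quantile normalisation leaves the brightest miRNAs, miR-7a and miR-29b, almost flat, which by itself brings them close to any profile with little spread. In the deposited matrix miR-29b had a log2 fold change of 0.65 (limma adjusted p = 0.0371), against 0.07 here. Family members were not among each other's 3 nearest. Of 271 miRNAs, miR-26b took place 75 for miR-26a and miR-26a took place 41 for miR-26b, at a distance of 0.21. At 0.16, miR-152 took place 59 for miR-148b-3p and miR-148b-3p took place 23 for miR-152. Of the 4, the shortest distance was the 0.13 between miR-26a and miR-148b-3p, which was place 8 for miR-26a and place 25 for miR-148b-3p.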

How the data were processed

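Total islet RNA of 4 rats aged 12 months and 3 aged 3 months had been labelled and hybridised to Agilent miRNA arrays. The authors deposited the scanner output of Agilent Feature Extraction (version 10.7.3.1, per the submitters' processing notes), which holds linear intensities after background subtraction. They also deposited a matrix of log2 values, used as an alternative. The notes to the paper's supplementary miRNA values describe values of this kind as quantile normalised. Groups were taken from the age in the labels. The exact permutation p values rest on the values of single rats, 1 array each. The limma p values and intervals also draw on a variance pooled over all miRNAs tested (3.03 prior degrees of freedom). The SEs of the 4 miRNAs were 0.13 to 0.18 in that fit and 0.06 to 0.17 in Student's t-test, which uses each miRNA's own spread.

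The total gene signal, the sum over a miRNA's probes, was read for 677 rat miRNAs. Signals were floored at 1, converted to log2 and quantile normalised with limma 3.58.1 under R 4.3.3. The 272 miRNAs that the software detected in all rats of 1 age or both were tested with lmFit and eBayes, with Benjamini-Hochberg adjustment over all of them. Student's t-test, which the methods name for the paper as a whole, was an alternative. Single values were tested with an exact two-sided permutation test over 35 splits (smallest p 0.0286), and ratios before normalisation. The pipeline was tested on simulated data. Alternatives covered the signal summary, background, scaling, detection filter, floor, variance model, array weights, slide row, leaving out each rat, and the deposited matrix. Cyclic loess, scaling to miR-375 or the summed signal, and the brighter probe alone were added after seeing the data. Other miRNAs named are the insulin-transcription group, opposite arms, miR-375 and miR-7a, and the 3 nearest profiles of each. The members and lists were chosen with earlier results of these data known. Mature sequences and GRCr8 positions are from RefSeq. The number of arrays limits the precision.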

Additional observations from a re-analysis of the deposited data

Results flagged for a closer look

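Of 18 sets of 4 values checked, 2 had a rat far from the others of its age, where chance alone flags a single set about 1 time in 20. All sets come from the same 4 miRNAs in the same 4 older rats. They are not independent, so the 2 flags cannot be weighed against that rate. Both were miR-152 in 12-month-old replicate 10. The gap between that rat and the next, divided by the range of the 4 rats, was 0.954 for the normalised log2 value and 0.996 for the log2 signal before normalisation, where 0.829 is the 95% critical value. The same rat had the lowest signal of its age for miR-26a, miR-26b and miR-148b-3p too. The brighter probe of miR-152 was also lowest there among the older rats, but it carries 97.2% to 98.2% of the total and is no separate reading. The dimmer probe, with far lower signals, read 9.04 there and 16.6, 16.6 and 15.7 in 12-month-old replicates 2, 4 and 16. Both probes read the same RNA, so they are not replicates. The part of this rat in the age comparison of miR-152 is given by the log2 fold change of 0.22 with it and 0.37 without it.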

How the results depend on the processing

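No paired analysis was possible because the ages share no replicate numbers. The age differences of miR-26b and miR-152 kept their direction under every alternative run, and no adjusted p of the 4 miRNAs was below 0.05 except with no normalisation, where log2 fold changes were 0.66 (miR-26a), 0.93 (miR-26b), 0.75 (miR-148b-3p) and 0.97 (miR-152). Array weights moved miR-152 to 0.36 (limma adjusted p = 0.0668) and miR-148b-3p to 0.13 (0.444). The cause of the brightness difference between the ages was not tested. The number of arrays limits the precision: with 7 rats, the half-widths of the 4 intervals were 0.30 to 0.42. What signal over background adds to them was not tested.

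The sign of miR-26a turned with scaling to the 75th percentile of all rat miRNAs (0.023), to miR-375 (0.086) and in the deposited matrix (0.0042), and that of miR-148b-3p with scaling to miR-7a (-0.12), to the summed signal (-0.064) and by cyclic loess (-0.043). Within row 1 of the slide, miR-26b was at 0.086 and miR-152 at 0.50. With each rat left out, log2 fold changes were -0.14 to -0.063 for miR-26a, 0.16 to 0.25 for miR-26b, -0.022 to 0.12 for miR-148b-3p and 0.16 to 0.37 for miR-152.

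For the within-array ratios, row 1 gave -0.60 (miR-26a to miR-26b), -0.30 (miR-26a to miR-148b-3p), -0.69 (miR-26a to miR-152) and -0.39 (miR-148b-3p to miR-152), and row 2 gave 0.036 for miR-26a to miR-148b-3p and -0.071 for miR-26a to miR-152. The ratio of miR-26b to miR-152 turned to 0.11 with normexp and 0.062 in the deposited matrix. Leaving out each rat gave -0.39 to -0.13 (miR-26a to miR-26b), -0.16 to -0.0095 (miR-26a to miR-148b-3p), -0.39 to -0.17 (miR-26a to miR-152), 0.12 to 0.23 (miR-26b to miR-148b-3p), -0.12 to 0.028 (miR-26b to miR-152) and -0.29 to -0.14 (miR-148b-3p to miR-152).

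Over all miRNAs, 59 at an unadjusted p below 0.05 became 193 with no normalisation and 89 with array weights, and 41 to 88 with each rat left out. The 4 at an adjusted p below 0.05 became 171 with no normalisation, 48 with array weights, 21 with the 75th percentile taken over miRNAs detected throughout, 10 with that of all miRNAs, 15 with scaling to miR-7a, 19 with the summed signal, 16 with cyclic loess, 8 in the deposited matrix, 2 with normexp, 1 with only miRNAs detected on all arrays, and 4 to 10 with each rat left out (10 without 12-month-old replicate 10). The causes were not tested.

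Among the other named miRNAs, signs turned as follows. With no normalisation these were miR-24 (0.80), miR-182 (0.43), miR-375 (0.57), miR-7a (0.87), miR-22 (0.74) and miR-30b-3p (0.69). With the 75th percentile of detected miRNAs they were miR-24 (0.080), miR-7a (0.15), miR-22 (0.015), miR-30e (-0.054) and miR-200a (-0.012), and with that of all miRNAs miR-24 (0.17), miR-7a (0.24), miR-22 (0.10) and miR-30b-3p (0.059). In the deposited matrix they were miR-24 (0.024), miR-7a (0.14), miR-22 (0.069), miR-30b-3p (0.0023) and miR-185 (-0.0012). With cyclic loess they were miR-24 (0.032), miR-7a (0.12), miR-30e (-0.12), miR-200a (-0.068) and miR-185 (-0.0054). With scaling to miR-375 they were miR-24 (0.23), miR-7a (0.30), miR-22 (0.17) and miR-30b-3p (0.12). With scaling to the summed signal they were miR-7a (0.057), miR-30e (-0.14), miR-200a (-0.10) and miR-185 (-0.019). With scaling to miR-7a they were miR-30e (-0.20), miR-200a (-0.16), miR-185 (-0.077), miR-96 (-0.022), let-7d (-0.041) and miR-299 (-0.027), and with array weights miR-24 (0.066) and miR-30b-3p (0.086). With a rat left out, miR-24 ranged from -0.15 to 0.080, miR-182 from -0.40 to 0.11, miR-30e from -0.028 to 0.065, miR-22 from -0.093 to 0.040, miR-185 from -0.075 to 0.085 and miR-30b-3p from -0.091 to 0.066.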
